A study of Mus musculus with 12 samples.

Results

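Nucleotide synthesis enzymes make the building blocks of DNA and RNA, and 10 of their genes are described here in mouse NIH3T3 cells: Tk1, Rrm1, Rrm2, Tyms, Dut, Dck, Cad, Umps, Dhodh and Paics. The genes were chosen by name as a pathway, and every probe set (a group of short probes for 1 transcript) whose only gene symbol in the array annotation was 1 of these 10 was taken. This gave 28 of the 45037 probe sets tested, and all 10 genes, of the 18193 measured, were represented. No filter on low values was applied. Where a gene had several probe sets, the one with the highest mean over all arrays stands for it, and the others are given for the control density step and where they bear on a call.

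NIH3T3 is an established mouse fibroblast line whose growth slows when the cells fill the dish, and the study asked how cell density and the Tead2 and Yap proteins change its gene expression. Tead2 is a DNA-binding transcription factor, and Yap, which cannot bind DNA itself, activates genes through Tead proteins. In the Hippo pathway Yap is kept out of the nucleus in crowded cells. Tead2-VP16 joins Tead2 to a viral activation domain, and Tead2-EnR joins it to the repression domain of Engrailed. All cells had been infected with virus, the control cells with a control vector, and were grown in small dishes.

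There were 6 groups of 2 Affymetrix arrays each. Control cells and Tead2-EnR cells were taken at low density, which the labels give as 30% confluency. Yap cells and Tead2-VP16 cells were taken at high density, still dividing at slightly more than the density at which normal cells are confluent. Control cells and Tead2-VP16 cells were also taken at complete confluency. Whether paired arrays were hybridised with RNA of 2 cultures or of 1 is not stated in the labels, and every p-value here therefore rests on array-to-array spread that may be technical. The promoters of the vectors, the number of clones and the share of infected cells are not given in the sources used here.

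Deoxynucleotides are made from ribonucleotides by ribonucleotide reductase, whose large subunit is encoded by Rrm1 and whose small subunit by Rrm2. Thymidylate synthase (Tyms) makes thymidine monophosphate from the deoxyuridine monophosphate that dUTPase (Dut) supplies, and thymidine kinase (Tk1) and deoxycytidine kinase (Dck) salvage ready-made deoxynucleosides. Cad carries out the opening steps of pyrimidine synthesis, Dhodh, a mitochondrial enzyme, oxidises dihydroorotate, and Umps completes uridine monophosphate. Paics catalyses consecutive steps of purine synthesis. Dividing cells need these products to copy their DNA, and several of these genes are well known to be expressed most in the phase in which DNA is copied.

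Values are the deposited probe set intensities on the log2 scale, so that a difference of 1 is a doubling. Median intensity was 51.9 to 53.7 over the 12 arrays. Over the probe sets that stand for the 18193 genes, the 2 arrays of a group correlated with r of 0.9976 to 0.9986. Of 10 fibroblast markers, 9 lay above the median probe set (5.72), with Fap below it, and the median of the list was 12.55 to 14.02 in the 6 groups. The median of each list of epithelial, endothelial, leukocyte, skeletal muscle and adipocyte markers was 4.16 to 5.95. Of these markers 3 of 5 epithelial, 1 of 5 endothelial, 2 of 5 leukocyte, 2 of 4 muscle and 0 of 3 adipocyte ones lay above the median probe set, the highest being Cd14 (7.96), Epcam (7.82), Des (7.32) and Csf1r (7.03). The Tead2 probe set read 9.83 in Tead2-EnR cells and 9.62 in low-density control, and 9.76 in Tead2-VP16 cells and 9.88 in control at confluency. The brighter Yap1 probe set read 9.66 in Yap cells and 9.96 in confluent control. Whether these probe sets detect the vectors' transcripts is not given in the sources used here, so the labels could not be checked by them.

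The genes lie on 7 chromosomes in RefSeq's mouse assembly GRCm38.p6, with Tyms, Cad, Paics and Dck on chromosome 5. RefSeq promoter windows, from 250 bases before to 50 bases after a start site, were held for 9 of the 10 genes and not for Dhodh. Shown here are the upstream bases for Rrm2 and Rrm1, whose products form 1 enzyme, for Tk1, whose level changed most between the control groups, and for Paics, whose level moved little. For Tk1 the 73 bases nearest the start site are left out, because they lie inside the annotated gene, and 177 bases are shown. Each runs 5′ to 3′ towards the gene, and capitals mark matches to the letters CCAAT or CACGTG.

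Rrm1, chr7:102441445-102441694, + strand: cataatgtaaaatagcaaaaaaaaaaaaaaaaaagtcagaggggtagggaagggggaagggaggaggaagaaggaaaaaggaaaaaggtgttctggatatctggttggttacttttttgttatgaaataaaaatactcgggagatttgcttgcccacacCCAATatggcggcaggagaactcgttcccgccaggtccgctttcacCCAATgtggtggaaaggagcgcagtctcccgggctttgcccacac

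Rrm2, chr12:24708004-24708253, + strand: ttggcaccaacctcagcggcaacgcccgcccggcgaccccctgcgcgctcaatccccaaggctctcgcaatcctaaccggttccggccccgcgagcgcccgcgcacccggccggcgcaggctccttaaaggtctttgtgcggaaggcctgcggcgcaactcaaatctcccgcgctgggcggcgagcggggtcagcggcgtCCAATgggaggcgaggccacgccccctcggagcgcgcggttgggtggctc

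Tk1, chr11:117826088-117826264, - strand: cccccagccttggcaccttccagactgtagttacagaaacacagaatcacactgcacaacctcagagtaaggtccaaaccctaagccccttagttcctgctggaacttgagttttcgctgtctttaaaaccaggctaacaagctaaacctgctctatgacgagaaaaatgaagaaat

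Paics, chr5:76951052-76951301, + strand: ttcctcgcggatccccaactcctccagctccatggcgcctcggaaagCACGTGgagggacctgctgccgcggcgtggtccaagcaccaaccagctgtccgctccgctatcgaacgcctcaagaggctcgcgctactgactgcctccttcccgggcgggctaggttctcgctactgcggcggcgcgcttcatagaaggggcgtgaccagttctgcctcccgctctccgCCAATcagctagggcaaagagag

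The CCAAT letters (the CCAAT box, a common promoter element) were found on either strand in 37.41% of all 32851 windows and in 3 of the 9. They began 91 and 45 bases before the Rrm1 start, 50 before that of Rrm2 and 23 before that of Paics. The letters CACGTG (the E-box) were in 7.15% of windows and in 2 of the 9, those of Tyms and Paics. No window of the 9 held the letters TTTCCCGC, TTTCGCGC, TTTGCCGC or TTTGGCGC (forms of the E2F site, in 2.26% of windows) or GGAATG (the core of the Tead site, in 14.66%). Other forms of these sites were not searched. These are matches of letters in a short window and say nothing about binding. No matches overlapped in these windows.

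In control cells all 10 genes were lower at complete confluency than at 30% confluency. Tk1 and Rrm2 showed the greatest differences, of 9.49-fold and 8.50-fold, and Dhodh and Paics the least, of 1.31-fold each. By limma over all probe sets, with Benjamini-Hochberg adjustment and a threshold of 0.05, all 10 were called lower, where 21.4% of all genes were called lower and 24.9% higher. The median log2 difference of the 10 was -1.63, and that of all 18193 genes was -0.011. In such bulk samples fewer cells with a transcript and less of it per cell cannot be told apart.

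**Figure D1:**
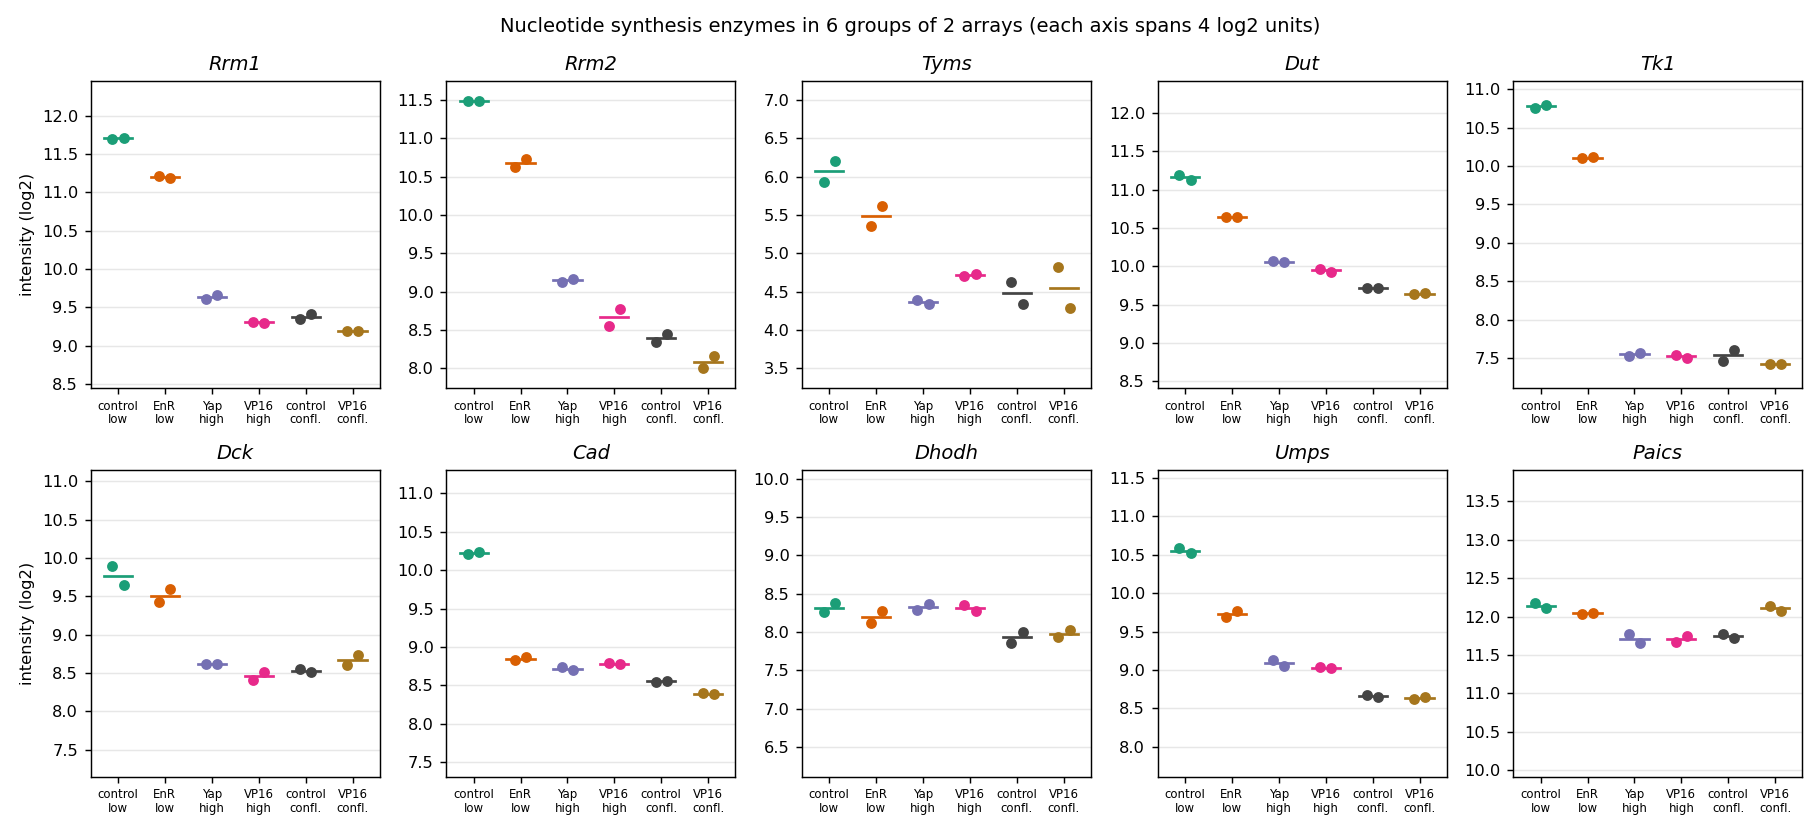
Intensity (log2, vertical axis) of the representative probe set of each of the 10 genes in the 6 groups; points are single arrays, lines are group means, and every panel spans the same number of log2 units. Low-density control has the highest mean for every gene but Dhodh, and the arrays of the 4 dense groups of Tk1 lie between 7.42 and 7.60.

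The ribonucleotide reductase genes fell together with density. Rrm2, the small subunit, read 11.48 and 11.49 in low-density control arrays and 8.35 and 8.44 in confluent ones. The fall was 3.09 (SE 0.089) on the log2 scale, with an adjusted p of 3.66e-09 by limma, and the groups did not overlap. The probe set that stands for Rrm2 here and below is an x_at set, whose probes may match other transcripts. Both other Rrm2 probe sets fell by as much, by 3.28 and 3.15. Rrm1, the large subunit, read 11.70 and 11.71 at low density and 9.35 and 9.41 at confluency, a 5.01-fold difference (SE of the log2 difference 0.058, limma adjusted p = 1.94e-09). Its second bright probe set fell by 2.33 on the log2 scale, and a further, dim set, at 3.44 and 3.09 in the respective groups, was not called (limma adjusted p = 0.0713).

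The salvage kinases fell by unequal amounts. Tk1, which phosphorylates thymidine and has a single probe set, read 10.76 and 10.80 at low density and 7.46 and 7.60 at confluency. Its confluent level was 10.5% of the low-density level (SE of the log2 difference 0.066, limma adjusted p = 7.88e-10). Dck, which phosphorylates deoxycytidine and other deoxynucleosides, read 9.89 and 9.65 at low density and 8.55 and 8.51 at confluency. This 2.36-fold difference (SE 0.095 on the log2 scale) had a limma adjusted p of 2.54e-06, and the other 2 Dck probe sets fell by 1.51 and 1.14 on the log2 scale. For both kinases every confluent array lay below every low-density array.

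The thymidylate enzymes were also lower at confluency. Dut, which removes dUTP, read 11.19 and 11.13 at low density and 9.72 in both confluent arrays. The 2.71-fold difference had an SE of 0.058 on the log2 scale and a limma adjusted p of 2.71e-08, and its second probe set fell by 1.05 on the log2 scale. Tyms, thymidylate synthase, had 4 probe sets with its symbol alone, and the mean of each lay below the median probe set. The brightest read 5.93 and 6.21 at low density and 4.63 and 4.34 at confluency (33.3% of the low-density level, limma adjusted p = 3.33e-05), a weak signal at confluency. A further probe set carries the symbols of Tyms and of its pseudogene Tyms-ps together, so it falls outside the rule and cannot be given to either. It was brighter, at 10.22 and 10.31 at low density and 7.72 in both confluent arrays.

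Of the pyrimidine genes, Umps and Cad fell clearly and Dhodh little. Umps, which makes uridine monophosphate, read 10.59 and 10.52 at low density and 8.67 and 8.64 at confluency (3.73-fold, SE 0.063 on the log2 scale, limma adjusted p = 8.12e-09). Cad, whose product begins the pathway, read 10.21 and 10.24 at low density and 8.54 and 8.55 at confluency (3.19-fold, SE 0.057, limma adjusted p = 1.01e-08). The other 2 Cad probe sets fell by 1.72 and 1.61 on the log2 scale, and of the other 3 of Umps 2 fell, by 1.55 and 1.33, while a dim one differed by 0.07 (adjusted p = 0.774). Dhodh, the mitochondrial step between them, read 8.26 and 8.38 at low density and 7.85 and 8.01 at confluency. Its difference of 0.39 on the log2 scale (SE 0.086) was called all the same (limma adjusted p = 0.00466), and its second probe set fell by 0.29. Paics, the purine enzyme, read 12.17 and 12.11 at low density and 11.78 and 11.73 at confluency (SE 0.067, limma adjusted p = 8.76e-04). Its second probe set fell by 0.52, and its x_at set whose probes may match other transcripts, differed by 0.01 (adjusted p = 0.972).

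Counted by probe set, 23 of the 28 were called lower at confluency and 0 higher, where 18.6% of all probe sets were called lower. The 5 that were not called were the x_at set of Paics and dim sets of Rrm1, Umps and Tyms, the last of these having 2. Of the 22 member probe sets above the median probe set, 21 were called lower. Probe sets of 1 gene are repeated readings of it and not replicates of the condition.

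**Figure D2:**
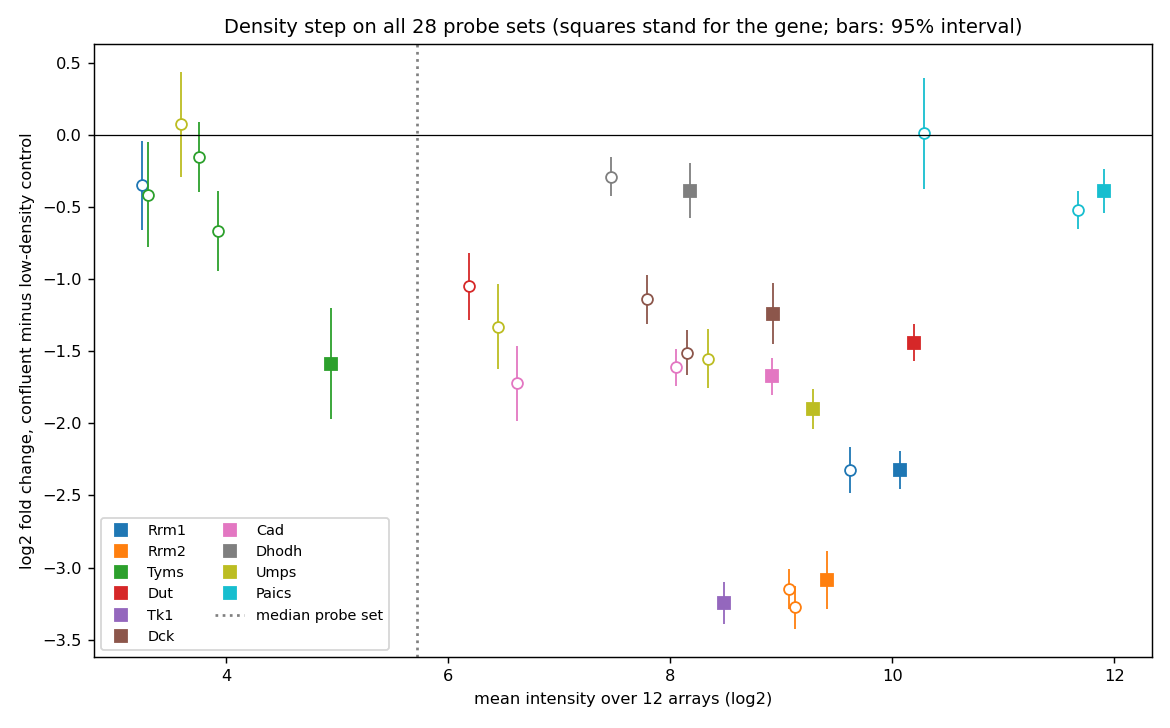
Difference between confluent and low-density control (log2, vertical axis; bars are the 95% interval of the fit) against the mean intensity over the 12 arrays (log2, horizontal axis) for all 28 probe sets. Filled squares stand for the gene, open circles are its other probe sets, and the dotted line is the median probe set; the probe sets of Rrm2 lie near -3.1 to -3.3, and the sets near 0 are dim or belong to Paics.

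Some technical readings also differed between the control groups. The mean of 12 probe sets for spiked-in RNA was 8.30 (SD 0.080, n = 2) in low-density control and 8.71 (SD 0.14, n = 2) at confluency. The 3′ probe set of the transferrin receptor exceeded its 5′ probe set by 0.98 (SD 0.052, n = 2) and 1.30 (SD 0.19, n = 2) in these groups, a measure of how complete the labelled RNA is. The same measure was 0.081 (SD 0.0066, n = 2) and 0.23 (SD 0.017, n = 2) for actin. For Gapdh it went the other way, from -0.23 (SD 0.0061, n = 2) to -0.28 (SD 0.031, n = 2). These shifts ran with the density step, and their part in it was not tested.

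Tead2-EnR cells at 30% confluency had less transcript of 7 of the 10 genes than control cells at that density. Cad fell most, and Umps, Rrm2, Tk1, Tyms, Dut and Rrm1 fell less. Dck, Dhodh and Paics were not called. All genes included, 16% were called lower and 18.4% higher, and the median log2 difference was -0.55 for the 10 and -0.011 for all 18193. This comparison and the control density step share the low-density control arrays, so likeness between their results is partly built in.

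Cad stood out by size. Its arrays read 8.83 and 8.87 in Tead2-EnR cells against 10.21 and 10.24 in control, a 2.59-fold difference (SE 0.057 on the log2 scale, limma adjusted p = 1.91e-07). Both other Cad probe sets fell by similar amounts, 1.53 and 1.32 on the log2 scale. The 95% interval for Cad, -1.50 to -1.24, reached none of the other genes' intervals, which began at -1.01 for Rrm2. Whether Cad differed from the other genes was not tested. Umps, the last enzyme of its pathway, read 9.68 and 9.76 in Tead2-EnR cells against 10.59 and 10.52 (1.78-fold, SE 0.063, limma adjusted p = 7.28e-06). Dhodh, between them, read 8.11 and 8.28 against 8.26 and 8.38, so that the arrays overlapped (difference -0.12, 95% interval -0.31 to 0.07, limma adjusted p = 0.369). A second Dhodh probe set was called lower, by 0.26 on the log2 scale (adjusted p = 0.00935).

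The deoxynucleotide genes fell by smaller amounts in Tead2-EnR cells. Rrm2 read 10.63 and 10.73 (1.75-fold lower than control, SE 0.089 on the log2 scale, limma adjusted p = 8.78e-05). Rrm1, its partner subunit, read 11.22 and 11.18 (1.42-fold, SE 0.058, limma adjusted p = 1.19e-04). The reductase pair thus moved the same way, and no Tead2-EnR array reached the control arrays. Tk1 read 10.10 and 10.12 and was at 63.0% of the control level (SE of the log2 difference 0.066, limma adjusted p = 4.2e-05). Dut read 10.64 in both arrays and was at 69.7% (SE 0.058, limma adjusted p = 8.63e-05).

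Tyms and Dck were the less certain members of this group. The brightest probe set with the symbol Tyms alone read 5.36 and 5.61 against 5.93 and 6.21 (difference -0.58, SE 0.17, limma adjusted p = 0.0308). The call was lost without the first Tead2-EnR array (adjusted p = 0.162) and without the second control array (0.176). The probe set shared with the pseudogene was brighter and also lower, at 9.44 and 9.52 against 10.22 and 10.31 (adjusted p = 9.31e-05). Dck read 9.42 and 9.60 against 9.89 and 9.65, a difference of -0.26 with a limma adjusted p of 0.0723. Both its other probe sets were called lower, by 0.49 and 0.26. Whether Dck was called also depended on the processing, as given below. For Paics, 12.04 and 12.05 against 12.17 and 12.11, the 95% interval of the difference ran from -0.25 to 0.05 (limma adjusted p = 0.345).

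By probe set, 18 of the 28 were called lower in Tead2-EnR cells and 0 higher, beside 13.9% of all probe sets called lower. The spike-in mean was 8.67 (SD 0.049, n = 2) in Tead2-EnR cells and 8.30 (SD 0.080, n = 2) in their control. The 3′ excess of the transferrin receptor was 1.12 (SD 0.025, n = 2) and 0.98 (SD 0.052, n = 2), and that of actin 0.15 (SD 0.020, n = 2) and 0.081 (SD 0.0066, n = 2), with no overlap of the arrays. The part of these shifts in the result was not tested.

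**Figure D3:**
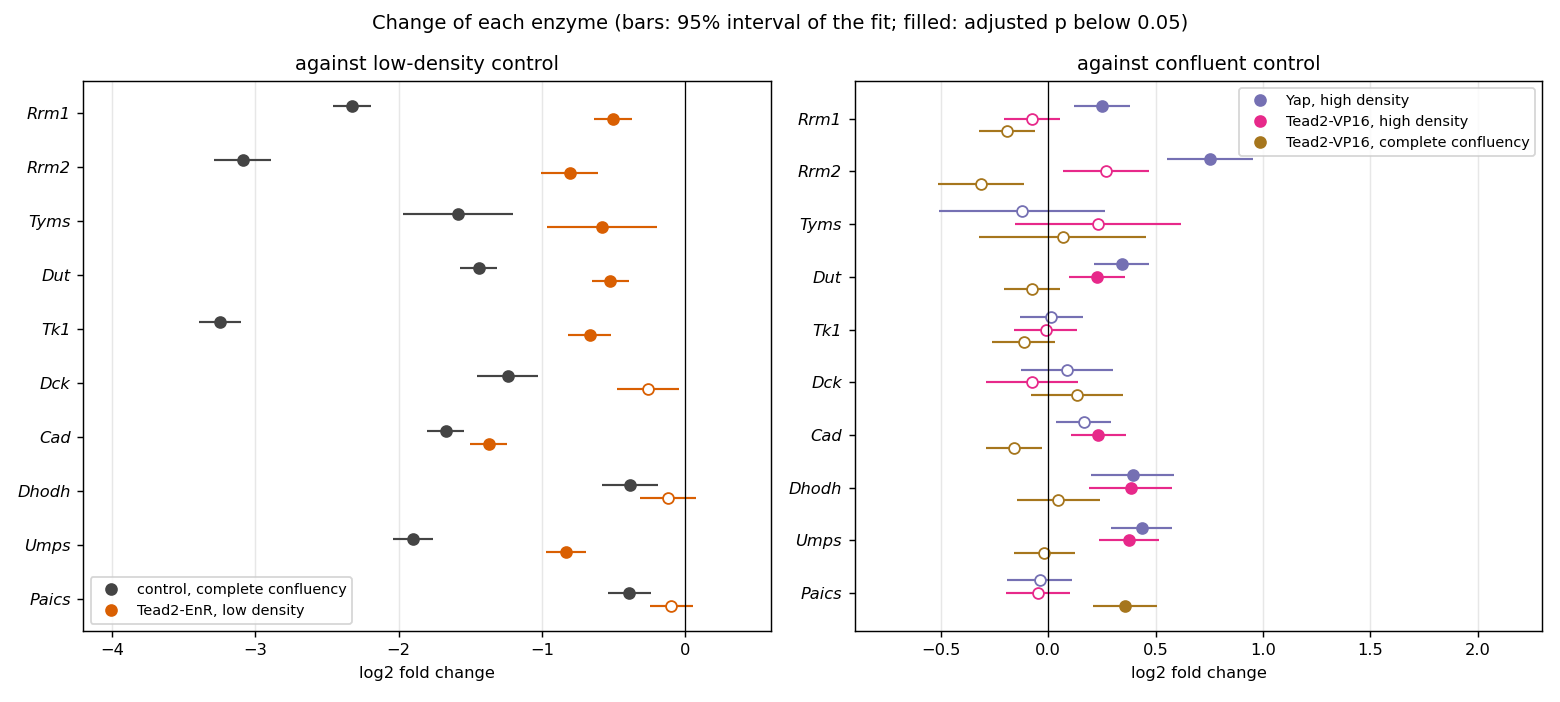
Log2 fold change (horizontal axes) of each of the 10 genes, with the 95% interval of the fit; filled points have an adjusted p below 0.05. Left, confluent control and Tead2-EnR cells, each against low-density control, with Cad at -1.67 and -1.37; right, the dense vector groups against confluent control, with Rrm2 in Yap cells at 0.75.

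The Tead2-EnR level of most genes remained far above that of confluent control. All 10 were called higher in Tead2-EnR cells at low density than in confluent control, beside 15% of all genes, with a median log2 difference of 0.99. Vector and density differ together in this comparison and cannot be told apart. Tk1 was 5.98-fold higher, Rrm2 4.86-fold and Rrm1 3.53-fold. Cad was 1.23-fold higher (adjusted p = 0.00346 by limma) and Dhodh by 0.27 on the log2 scale. In the order of the group means, Tead2-EnR cells stood directly below low-density control for 8 of the genes, all but Dhodh and Paics. For Cad the next group down, Tead2-VP16 at high density, was 0.07 lower on the log2 scale and did not differ (adjusted p = 0.537 by limma).

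Yap cells and Tead2-VP16 cells were harvested while still dividing at high density, and Tk1 in them was at the level of confluent control. It read 7.53 and 7.57 in Yap cells, 7.54 and 7.50 in Tead2-VP16 cells and 7.46 and 7.60 in confluent control. The differences from confluent control were 0.02 (95% interval -0.13 to 0.16, limma adjusted p = 0.92) and -0.01 (95% interval -0.16 to 0.14, limma adjusted p = 0.948). The labels match neither control group to the density of these cells, so vector and density cannot be told apart in what follows.

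Against confluent control, Yap cells had higher levels of 5 of the 10 genes, beside 9.61% of all genes called higher and 12.4% lower. The median log2 difference was 0.21 for the 10 and -0.003 for all genes. Rrm2, the small reductase subunit, led, with 9.13 and 9.17 against 8.35 and 8.44 (1.68-fold, SE 0.089 on the log2 scale, limma adjusted p = 3.58e-04). Its other 2 probe sets were called too, at differences of 0.63 and 0.78. Umps read 9.12 and 9.06 against 8.67 and 8.64 (1.35-fold, limma adjusted p = 0.00109). With its 4 probe sets averaged, a dim one among them, Umps was 0.23 higher on the log2 scale and not called (adjusted p = 0.0585). Dut read 10.07 and 10.06 against 9.72 (1.27-fold, limma adjusted p = 0.00266). All Yap arrays lay above the confluent control arrays for these genes.

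Rrm1 and Dhodh were called with smaller margins. Rrm1 read 9.60 and 9.66 against 9.35 and 9.41 (difference 0.25, limma adjusted p = 0.0149), and the call was lost without either Yap array (adjusted p = 0.0512 and 0.103) or without the first confluent control array (0.1). Dhodh read 8.29 and 8.36 against 7.85 and 8.01 (difference 0.39, limma adjusted p = 0.011), and the call was lost without the second Yap array (0.0799) or the first control array (0.091). The second Dhodh probe set was 0.16 higher and not called (adjusted p = 0.109). Cad, at 8.74 and 8.69 against 8.54 and 8.55, was not called (limma adjusted p = 0.0819), nor were Dck, Tyms and Paics. Another Cad probe set was called, 0.20 higher (limma adjusted p = 0.0439), and the remaining Cad set differed by 0.11 (0.619). Whether Cad was called also depended on the processing, as given below.

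In Tead2-VP16 cells at high density 4 of the 10 genes were called higher than in confluent control, beside 11.4% of all genes. The median log2 difference of the 10 was 0.23. The confluent control arrays are those used for Yap cells above, so the results of these comparisons are not independent. Umps read 9.04 and 9.02 (1.30-fold, SE 0.063 on the log2 scale, limma adjusted p = 0.00234) and Dhodh read 8.35 and 8.28 (1.31-fold, limma adjusted p = 0.0115). Cad read 8.79 and 8.78 (1.18-fold, limma adjusted p = 0.0177) and Dut 9.97 and 9.93 (1.17-fold, limma adjusted p = 0.0205). The calls of Cad and Dut were lost without any 1 of the 4 arrays, which left 1 or 2 genes called, and Dhodh was lost without the first Tead2-VP16 or the first control array (adjusted p = 0.08 and 0.0928). Rrm2, at 8.55 and 8.78, was 0.27 higher and not called (limma adjusted p = 0.0652), while its other 2 probe sets were, at 0.41 and 0.34. The spike-in mean was 8.43 (SD 0.075, n = 2) in this group and 8.71 (SD 0.14, n = 2) in confluent control. The part of this shift in the result was not tested.

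These cells remained far below low-density control for the genes that fall most with density. In each of the 2 groups 9 of the 10 genes were called lower than in low-density control, beside 18.6% of all genes for Yap cells and 18.1% for Tead2-VP16 cells. Tk1 differed by -3.23 in Yap cells and by -3.26 in Tead2-VP16 cells, and Rrm2 by -2.34 and -2.82. Dhodh was the exception, with differences of 0.007 (95% interval -0.19 to 0.20, limma adjusted p = 0.965) and -0.0008 (95% interval -0.19 to 0.19, limma adjusted p = 0.996). On this probe set the lowest means were those of the 2 groups at complete confluency. The second probe set gave another order, with Tead2-EnR cells (7.37) below confluent Tead2-VP16 cells (7.45). These comparisons share control arrays with the density step, so they are not separate evidence of its size.

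Yap and Tead2-VP16 cells, compared with each other at high density, differed in the reductase genes. Rrm2 was 1.40-fold higher in Yap cells (9.13 and 9.17 against 8.55 and 8.78, SE 0.089 on the log2 scale, limma adjusted p = 0.0294). Rrm1 was 1.25-fold higher (9.60 and 9.66 against 9.31 and 9.30, SE 0.058, limma adjusted p = 0.0264). No other of the 10 was called, beside 0.742% of all genes called higher. The calls of both genes were lost when either Yap array or the first Tead2-VP16 array was left out, and that of Rrm1 also when array 2 of Tead2-VP16 was (adjusted p = 0.098). The second bright probe set of Rrm1 was called (0.42 higher), as was 1 of the other 2 of Rrm2 (0.44), and the remaining Rrm2 set differed by 0.22 (adjusted p = 0.156).

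At complete confluency Tead2-VP16 cells differed from control in 1 of the 10 genes, Paics, beside 3.35% of all genes called higher. Paics read 12.14 and 12.07 against 11.78 and 11.73, a 1.28-fold difference (SE 0.067 on the log2 scale, limma adjusted p = 0.0145). On this probe set that was within 0.03 of its low-density control level on the log2 scale (limma adjusted p = 0.747). The means of confluent Tead2-VP16 and low-density control were 11.79 and 11.93 on its second probe set, and 10.885 and 10.188 on its x_at set. Against confluent control the second probe set was called as well (0.38 higher, adjusted p = 0.00529), and the x_at set was 0.69 higher (0.0511). Leaving out either control array ended the call (adjusted p = 0.064 and 0.102), as did leaving out array 1 of Tead2-VP16 (0.0994). Of the 11 other genes of de novo purine synthesis measured, 1 was called higher in the same comparison.

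The other 9 genes were not called between the confluent groups. The least certain were Rrm2, at 8.01 and 8.16 against 8.35 and 8.44 (difference -0.31, 95% interval -0.51 to -0.11, limma adjusted p = 0.0817), and Rrm1, at 9.19 in both arrays against 9.35 and 9.41 (-0.19, 95% interval -0.32 to -0.06, limma adjusted p = 0.102). On these probe sets the Tead2-VP16 arrays lay below the control arrays. The other 2 Rrm2 probe sets differed by -0.12 (adjusted p = 0.359) and by 0.015, with overlapping arrays (0.933). The larger difference thus rests on 1 of 3 sets, the x_at one. The second bright Rrm1 probe set differed by -0.22 (adjusted p = 0.125). Tk1, at 7.42 in both arrays, differed by -0.11 (95% interval -0.26 to 0.03, limma adjusted p = 0.405). Neither Umps nor Dut differed from control by more than 0.08 on the log2 scale.

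Within Tead2-VP16 cells, 5 of the 10 genes were lower at complete confluency than at high density and Paics was higher, beside 10% of all genes called lower and 10.2% higher. Rrm2 fell by 0.58 on the log2 scale (limma adjusted p = 0.00209). Cad fell by 0.39 (limma adjusted p = 0.0016), Umps by 0.39 (0.00259), Dhodh by 0.34 (0.0252) and Dut by 0.30 (0.00624). The call of Dhodh was lost without any 1 of the 4 arrays, and its second probe set was not called (-0.10, adjusted p = 0.323). Paics was 0.40 higher at confluency (limma adjusted p = 0.00316), the only one of the 10 called higher. Tk1, already near its lowest level at high density, differed by -0.10 (95% interval -0.25 to 0.05, limma adjusted p = 0.357). Technical readings differed here too. The spike-in mean was 8.43 (SD 0.075, n = 2) at high density and 8.80 (SD 0.21, n = 2) at complete confluency. The 3′ excess of the transferrin receptor was 1.228 (SD 0.0014, n = 2) and 1.501 (SD 0.057, n = 2). The arrays did not overlap in these readings, but did for actin and Gapdh. The part of these shifts in the result was not tested.

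The order of the 6 groups followed a few forms. Rrm1, Rrm2, Dut, Tk1, Umps and Cad all had low-density control on top and Tead2-EnR next, or level with Tead2-VP16 at high density for Cad. Confluent Tead2-VP16 had the lowest mean but did not differ from the group above it (adjusted p of 0.0817 or more by limma). On a further Rrm2 probe set confluent control (7.97) lay below confluent Tead2-VP16 (7.98). The top 2 groups differed for each of these 6 genes, with adjusted p-values by limma of 1.19e-04 or less. For Tk1 and Tyms neighbours among the 4 dense groups did not differ. Tead2-EnR stood above the highest of these 4 for both (adjusted p = 5.72e-08 and 0.012 by limma). For Dck the top 2 groups did not differ (adjusted p = 0.0723 by limma), nor did neighbours among the 4 dense groups. For Cad only low-density control stood apart from its neighbour. For Dhodh no neighbouring groups differed. For Paics neighbours among the 3 upper groups, low-density control, confluent Tead2-VP16 and Tead2-EnR, did not differ, nor did neighbours among the 3 lower ones. Between these sets, Tead2-EnR was 0.29 higher than confluent control (adjusted p = 0.00954 by limma).

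Other genes of nucleotide metabolism, taken as 5 lists with 54 of 57 entries measured, did not all move as the 10 did. In the density step of control cells 33 of the 54 were called lower and 11 higher. In Tead2-EnR cells 26 were called lower and 10 higher. Of all genes, 21.4% were called lower and 24.9% higher in the density step, and 16% lower and 18.4% higher in Tead2-EnR cells. In Yap cells 9.61% of all genes were called higher than in confluent control and 12.4% lower, and in confluent Tead2-VP16 cells 3.35% were called higher.

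Genes of de novo purine synthesis were called lower at confluency in control cells in 10 of 11 cases and higher, by 0.41, in 1 (median -1.09). The smallest adjusted p-values were those of Prps1, which makes the ribose phosphate donor (difference -1.84), Atic (-1.46) and Gmps (-1.09), late enzymes, and Ppat (-1.66), the committed step. In Tead2-EnR cells 8 of the 11 were called lower (median -0.57). Those named by the same rule were Atic (-0.84), Prps1 (-0.80), Pfas (-0.96) and Gart (-0.84). In Yap cells 5 were called higher than in confluent control, among them Atic (0.57) and Gmps (0.42). At confluency Tead2-VP16 cells had 1 called higher than control, Prps1 (0.39).

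The folate cycle, which supplies carbon units to purine and thymidylate synthesis, had 7 of 8 genes lower and 1 higher at confluency in control cells (median -1.20). Shmt2 (-2.20) and Mthfd2 (-2.12), mitochondrial enzymes, fell most, and Slc19a1 (-1.64), the folate carrier, and Mthfd1 (-1.42) followed. Ggh, which removes glutamates from folates, was 0.77 higher. In Tead2-EnR cells again 7 were lower and 1, Ggh (0.62), higher (median -0.74), with Shmt2 at -1.44, Mthfd2 at -1.24, Slc19a1 at -1.15 and Mthfd1 at -0.72. In Yap cells 5 were called higher than in confluent control, led by Mthfd1l (0.72). In confluent Tead2-VP16 cells 2 were, Shmt2 (0.56) and Mthfd2 (0.39).

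Pyrimidine and deoxynucleotide kinases and ligases went both ways. Of 15, 8 were lower and 6 higher at confluency in control cells (median -0.21). Uck2, a uridine kinase, and Ctps1, which makes CTP, differed by -1.90 and -1.51, and Dctpp1 by -1.61, whereas Uckl1, a uridine kinase-like gene, was 1.86 higher. The mitochondrial deoxynucleoside kinases Dguok and Tk2 were 1.57 and 0.80 higher, and Rrm2b, the small reductase subunit expressed outside DNA replication, was 0.85 higher, opposite to Rrm2. Tk2, Dguok and Rrm2b were singled out after their values were seen, as counterparts of Tk1, Dck and Rrm2. In Tead2-EnR cells they were also higher, by 0.39, 1.0 and 0.55, among 6 higher and 5 lower, with Uck2 at -1.03 and Dctd, a deoxycytidylate deaminase, at -1.11. In Yap cells 4 of the list were higher than in confluent control, led by Uck2 (0.82), and 4 lower. In confluent Tead2-VP16 cells 1 was higher, Uck2 (0.46).

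Purine salvage had 3 of 5 genes lower at confluency in control cells, Ada (-1.53), Aprt (-0.75) and Hprt1 (-0.60), and Ada (-0.96) and Aprt (-0.58) were lower in Tead2-EnR cells. Yap cells had 4 of the 5 higher than confluent control, with Hprt1 at 0.54 and Pnp at 0.40, and confluent Tead2-VP16 cells had Pnp higher (0.31). Genes of nucleotide breakdown were called lower in 5 and higher in 3 of 15 cases at confluency, beside 21.4% and 24.9% of all genes. Xdh, which oxidises purines to urate, was 1.69 higher and Ampd3 1.17 higher, while the uridine phosphorylase Upp1 (-1.58) and Nt5c3 (-0.90) were lower. Xdh was also 1.15 higher in Tead2-EnR cells, where 4 of the list were lower and 3 higher. It was 0.58 higher in Yap cells and 0.93 higher in confluent Tead2-VP16 cells than in confluent control.

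**Figure D4:**
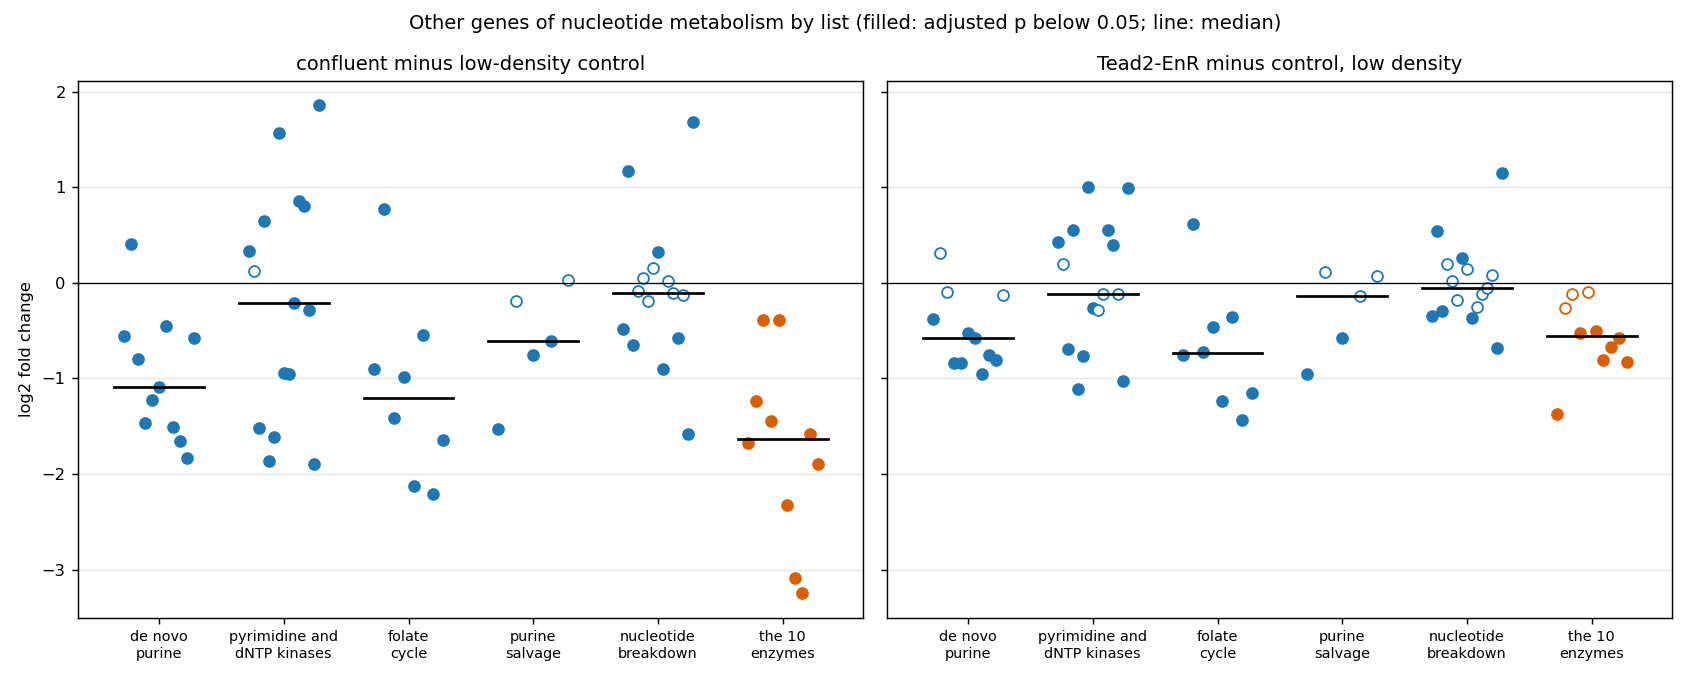
Log2 fold change (vertical axis) of each measured gene of the 5 lists and of the 10 enzymes; left, confluent minus low-density control, right, Tead2-EnR minus control at low density. Filled points have an adjusted p below 0.05 and lines are list medians, -1.09 and -0.57 for purine synthesis and -1.63 and -0.55 for the 10 enzymes.

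Across the 12 arrays, and among 9095 other genes with a mean above the median gene, those whose levels ran closest to Tk1 were Cdk1 and Racgap1 (Pearson r = 0.9982 each), Dnajc9 (0.998), Pimreg (0.9979) and Mad2l1 (0.9978). Those closest to Cad were Prmt5 (0.9955), Ppif (0.9954), Fhdc1 (0.9944), Utp15 (0.9939) and Lrrc47 (0.9938). These values describe 12 arrays that fall into 6 groups and share 1 normalization, with the low-density arrays apart from the rest, and carry no test.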

How the data were processed

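Total RNA of 12 samples of NIH3T3 cells was labelled with biotin for Affymetrix arrays, per the labels. The authors deposited linear probe set intensity values, and RMA, with no version, is named per the submitters' processing notes; RMA normalizes between arrays, so overall shifts in RNA amount are removed. Here log2 was taken with no pseudocount and no filter. After 64 control probe sets were left out, 45037 probe sets of all 12 arrays were fitted with 1 mean per group by limma 3.58.1 (R 4.3.3; 6 residual degrees of freedom, 3.69 from the prior). P-values are two-sided, with Benjamini-Hochberg adjustment over all probe sets within a comparison and a threshold of 0.05, and 9 comparisons and all 15 pairs of groups were read. The script was tested on simulated data. The members, lists and tests were chosen with earlier results of these data known. All members are named, with up to 4 called genes of each list by adjusted p, other features only where stated. Motifs were picked after the arrays had been read. Alternatives were other feature sets, normalizations and variance models, fewer arrays, a replicate block and a fold threshold. Replicate numbers did not pair the arrays: over 15 pairs of groups, the correlation of same-numbered deviations was -0.06 to 0.10. Figures used matplotlib 3.10.9 in Python 3.11.15. The number of arrays limits the precision.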

Additional observations from a re-analysis of the deposited data

How the results depend on the processing

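Of 1071 alternative values of single members, 973 kept their direction and side of the threshold, 41 lost the call, 25 gained it, 32 were uncalled with the other sign and 0 were called with the other sign. Requiring a 2-fold change in place of a test left 1 gene instead of 7 for Tead2-EnR against control. It left 0 genes for confluent Tead2-VP16, for Yap and Tead2-VP16 at high density against confluent control, for Yap against Tead2-VP16 and for the density step in Tead2-VP16 cells. The main counts were 1, 5, 4, 2 and 6.

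For confluent Tead2-VP16 against control, 3 genes were called with 1 probe set per gene and 4 among probe sets above the median. With a variance trend and robust prior 3 were called, and with the 4 arrays alone 0. The genes added to Paics were Rrm1 and Rrm2, and Cad among probe sets above the median. These were lower in Tead2-VP16 cells (differences -0.19, -0.31 and -0.16), whereas Paics was higher. Tead2-EnR against control had 8 genes with 1 probe set per gene or with the variance trend. It had 9 with the probe sets of each gene averaged and 7 among probe sets above the median. Dck (lower) was added in each of these settings, and Dhodh (lower) with averaging. Yap against confluent control had 6 genes with 1 probe set per gene, among probe sets above the median, or with the variance trend. The gene added was Cad (higher). Averaging the probe sets of each gene or using only the arrays compared left 4 genes for Yap. Using only the arrays compared left 2 genes for Tead2-VP16 at high density against confluent control. With the other feature sets, normalizations and variance model 5 genes were called in this comparison each time, with Rrm2 (higher) added. For Yap against Tead2-VP16, using only the arrays compared left 0 genes and averaging the probe sets of each gene left 1. Leaving out an array gave 3 to 5 genes for Yap and 1 to 2 for Tead2-VP16 against confluent control, and 0 to 1 for Yap against Tead2-VP16. Fits with fewer arrays also have fewer degrees of freedom. The density step in control kept 10 genes with any 1 array left out, and Tead2-EnR against control 6 to 7.

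With the replicate block, 2 genes were called for confluent Tead2-VP16, Paics (higher) and Rrm2 (lower). For Tead2-VP16 at high density against confluent control 5 were called, again with Rrm2 added, there higher (representative probe sets were read). The block changed no other call of these genes in the 9 comparisons. The replicate numbers are not known to mark shared dishes. With 2 arrays a group and no detection calls, differences of dim probe sets such as those of Tyms are the least certain.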

Other observations

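The probe set annotated to both Tyms-ps and Tyms is not counted for Tyms because its signal cannot be given to either gene, and its values in all 6 groups are these. It read 10.22 and 10.31 in low-density control, 9.44 and 9.52 in Tead2-EnR cells, 8.03 and 8.06 in Yap cells, and 8.21 and 7.97 in Tead2-VP16 cells at high density. At complete confluency it read 7.72 in both control arrays and 7.60 and 7.72 in Tead2-VP16 cells. By limma it was 0.32 higher in Yap cells than in confluent control (adjusted p = 0.0334) and 0.36 higher in Tead2-VP16 cells at high density (adjusted p = 0.0163), where the brightest probe set of Tyms alone was not called in either comparison (adjusted p = 0.731 and 0.441).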
